A study of Mus musculus with 6 samples.

Results

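Sox4, Sox5, Sox6 and Sox13 are 4 genes of the SOX family of transcription factors, and their transcripts were followed in natural killer (NK) cells from the mouse thymus with and without the transcription factor gene Tcf7. The members were named by gene identifier, not by their values, and are 4 of the 26332 genes in the count table and 4 of the 13652 genes that passed the filter on low counts. All 4 passed it.

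SOX proteins bind DNA through an HMG box, the same kind of domain that TCF-1, the product of Tcf7, carries. Both families bend the double helix, and their preferred sites resemble each other. Sox5, Sox6 and Sox13 form the SoxD group, whose proteins pair with one another through a coiled coil and have no activation domain of their own. Sox4 belongs with Sox11 and Sox12 to the SoxC group of activators. In the thymus, Sox4 and Sox13 are known for their part in gamma-delta T cells that make interleukin 17, and Sox4 also for early T and B cell development. Sox6 is best known for silencing embryonic globin genes in red cell precursors and, with Sox5, for cartilage formation.

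The series holds 6 RNA-seq libraries from C57BL/6 mice, 4 wild type (WT) and 2 with a Tcf7 knock-out (KO), each from a separate mouse by the design text. The labels give WT 1, WT 3 and KO 1 as male and the other 3 libraries as female. Thymic cells were sorted as NK1.1+ and NKp46+ and as lacking TCRbeta, CD3, CD8 and binding to the CD1d tetramer. The sources used here give neither the form of the knock-out allele nor the age of the mice.

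Each library held 16418910 to 31155303 counts, so that 3 counts, the limit below which a level cannot be told from 0, correspond to 0.0989 to 0.180 CPM. Levels are read counts scaled to library size (CPM) after TMM scaling, which adjusts library totals for differences in composition. Tcf7 itself fell from 811 to 947 CPM in WT to 268 CPM in KO 1 and 452 CPM in KO 2, so its gene was still counted in both. Ncr1, the gene of NKp46, was high in all 6 libraries (740 to 1037 CPM). WT 4 and KO 2 held the most transcript of immature thymocytes, with a summed level of 7 marker genes of 159 and 554 CPM. The other 4 libraries ranged from 29.8 to 64.4 CPM.

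The labelled sex did not match the sex-linked transcripts of every library. Xist, expressed from the inactive X chromosome of females, was at 0 to 0.40 CPM in the 3 libraries labelled male, and 4 Y-linked genes (Ddx3y, Eif2s3y, Kdm5d and Uty) summed to 264 to 351 CPM there. WT 4 held 424 CPM of Xist and 0.12 CPM of the Y-linked genes. WT 2, labelled female, held 64.8 CPM of Xist together with 233 CPM of the Y-linked genes, and KO 2 held 635 CPM of Xist together with 19.9 CPM. WT 2 thus went against its label, and both libraries held transcripts of both sexes, whose source was not tested. Without WT 2 the log2 fold changes, KO minus WT, were -4.36 for Sox6 and 3.49 for Sox13, both called, and -1.12 for Sox5 and -0.98 for Sox4, neither called. Without WT 2 and KO 2, a fit chosen after seeing the data in which KO 1 stands alone, Sox6 (-3.79), Sox13 (4.79) and Sox4 (-1.79) were called and Sox5 (-0.92) was not. A fit without the sex term kept the direction and the call of all 4.

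The KO libraries showed opposite changes within the SoxD group. Sox6 fell in both KO libraries, to 22 and 7 counts, and Sox13 rose in both, from 2 to 65 counts in the WT libraries. Sox5 was lower in both KO libraries than in any WT library but did not pass the test. Sox4 was low in KO 1 and at the upper WT level in KO 2, so the KO libraries disagreed. A gene was called when its adjusted p (edgeR quasi-likelihood test, Benjamini-Hochberg over all 13652 genes) lay under 0.05. Of the 4 SOX genes, 1 was called lower and 1 higher, while 5.58% of all tested genes were called lower and 8.13% higher. Both KO libraries lay below every WT library for 2 of the 4 and above every WT library for 1, against 18.8% and 20.5% of all tested genes.

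**Figure D1:**
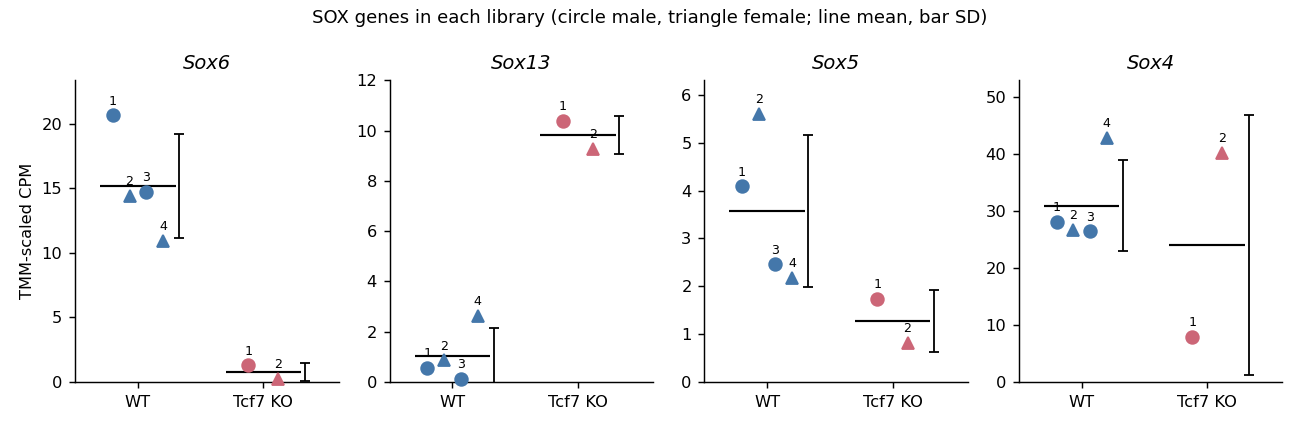
Level of each SOX gene in each library, in TMM-scaled CPM, with circles for libraries labelled male, triangles for those labelled female, replicate numbers beside the points, a line at the group mean and a bar of 1 SD (cut at 0 for Sox13 in WT). Sox6 lies at 10.9 to 20.6 CPM in WT and at 1.28 and 0.26 CPM in KO, Sox13 shows the opposite order, and for Sox4 KO 1 lies below and KO 2 within the WT range.

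Sox6 (Entrez gene 20679) lies on the minus strand of mm10 chromosome 7, at chr7:115470872-116040776, and has up to 17 exons in a transcript. No annotated exon of another gene overlaps its exons, which matters here because the libraries do not record strand. From WT 1 to WT 4 it was measured at 20.6, 14.4, 14.7 and 10.9 CPM. In KO 1 it was 1.28 CPM (22 counts) and in KO 2 0.26 CPM (7 counts). All WT libraries thus lay far above both KO libraries. Mean Sox6 was 15.2 ± 4.03 CPM in WT (SD, n = 4) and 0.77 ± 0.72 CPM in KO (SD, n = 2), a 19.8-fold lower mean in KO. The log2 fold change, KO minus WT, was -4.50 (SE 0.47, 95% interval -5.59 to -3.40, adjusted p = 0.00149). It was -5.59 without KO 1 and -3.80 without KO 2, and the call held without any 1 library (adjusted p 0.00139 to 0.00927). Compared within the libraries labelled male it was -3.79 (17.7 to 1.28 CPM) and within those labelled female -5.61 (12.7 to 0.26 CPM), or -5.40 with WT 4 as the only WT library.

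In bulk RNA, fewer cells that express a gene and less transcript per cell cannot be told apart. Beside Sox6, the summed level of 8 NK cell markers was 10947 to 12170 CPM in WT, 9447 in KO 1 and 8580 in KO 2. Of the 8, 2 fell, Klrb1c (NK1.1) and Eomes, while 5.58% of all tested genes fell. Red cell precursors are another known source of Sox6. Their marker sum over 7 genes was 19.4 to 56.0 CPM in WT, 0.41 in KO 1 and 31.0 in KO 2, so that KO 2 lay within the WT range. The part of either in the fall of Sox6 was not tested.

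The promoter table of RefSeq (GRCm38.p6, the same build as mm10) lists 6 transcript starts for Sox6, of which the most upstream and the one with the most matches to HMG-box motifs are shown, because TCF-1 and SOX proteins read similar short motifs. The 250 bases before each start were searched on both strands for the TCF/LEF core CTTTGA and the SOX cores ACAATG and ACAAAG, and capitals mark the matches. CTTTGA and the reverse complement of ACAAAG share the letters CTTTG.
Sox6 start at 116038744 (chr7:116038745-116038994, minus strand): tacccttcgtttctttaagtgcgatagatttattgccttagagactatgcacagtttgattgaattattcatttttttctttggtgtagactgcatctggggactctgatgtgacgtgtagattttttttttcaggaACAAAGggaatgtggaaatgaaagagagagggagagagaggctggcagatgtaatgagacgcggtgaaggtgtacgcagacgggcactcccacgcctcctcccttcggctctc
Sox6 start at 115995086 (chr7:115995087-115995336, minus strand): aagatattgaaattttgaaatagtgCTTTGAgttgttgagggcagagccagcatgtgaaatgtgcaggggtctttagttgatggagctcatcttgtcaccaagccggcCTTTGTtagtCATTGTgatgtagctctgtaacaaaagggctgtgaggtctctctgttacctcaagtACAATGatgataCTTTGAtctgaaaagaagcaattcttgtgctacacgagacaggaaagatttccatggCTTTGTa
The most upstream window held 1 match, to ACAAAG, at 113 bases before the start. The window before 115995086 held 2 matches to CTTTGA (225 and 64 bases before the start), 2 to ACAATG and 2 to ACAAAG. The TCF/LEF core was found in 3 of the 6 Sox6 windows. Of 32817 windows of this length in the table, whatever their GC content, 13.8% held CTTTGA, 10.7% ACAATG and 16.5% ACAAAG. A match is a string of letters and not a bound site, and the gene-level counts do not tell which start was used.

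Sox13 (Entrez gene 20668), on the minus strand at chr1:133382300-133424459 with up to 14 exons, was the only SOX gene called higher among the 6 tested. WT 1 held 0.57 CPM (14 counts), WT 2 0.86 (26 counts), WT 3 0.12 (2 counts) and WT 4 2.62 (65 counts). It was 10.4 CPM in KO 1 (179 counts) and 9.28 in KO 2 (250 counts). The KO libraries were close to each other and above every WT library, while WT libraries differed 21.9-fold, with WT 3 under the 3-count limit. Mean Sox13 was 1.04 ± 1.10 CPM in WT (SD, n = 4) and 9.83 ± 0.77 CPM in KO (SD, n = 2). The log2 fold change was 3.64 (SE 0.73, 95% interval 1.93 to 5.35, adjusted p = 0.0187). The call was lost without WT 1 (3.66, adjusted p = 0.0729) and without KO 1 (2.42, adjusted p = 0.150), and the log2 fold change was 4.81 without KO 2. Within the libraries labelled male it was 4.92 (0.34 to 10.4 CPM) and within those labelled female 2.42 (1.74 to 9.28 CPM), or 1.82 with WT 4 as the only WT library.

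Beside the Sox6 windows, the single Sox13 window of the table is shown, since Sox13 was the other member called.
Sox13 start at 133424212 (chr1:133424213-133424462, minus strand): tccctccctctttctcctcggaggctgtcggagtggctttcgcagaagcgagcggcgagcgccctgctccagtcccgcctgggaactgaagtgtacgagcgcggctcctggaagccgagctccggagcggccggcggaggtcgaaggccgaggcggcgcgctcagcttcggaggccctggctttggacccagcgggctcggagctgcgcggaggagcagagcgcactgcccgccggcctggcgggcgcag
None of the 3 motifs was found in it, and its GC content was 72.4%, against 45.2% before the most upstream Sox6 start. With 6 Sox6 windows and 1 Sox13 window of unlike GC content, their matches cannot be compared. A link between matches and the direction of change was not tested. The Sox4 window held none of them either. The single Sox5 window, before a start at 143947106, held 1 match to ACAATG. That start lies inside the gene, whose upstream end at 144782287 was not searched. The most upstream Sox6 start listed (116038744) and the Sox13 start (133424212) also lie inside their genes, which reach to 116040776 and 133424459. For Sox6 the bases between 116038994 and 116040776 were not searched.

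Sox13 rose together with markers of T cells, which the sort was set to remove. The summed level of 9 gamma-delta T cell genes was 238 to 416 CPM in WT, 785 in KO 1 and 558 in KO 2, and 4 of the 9 rose. That of 10 alpha-beta T cell genes was 322 to 494 CPM in WT, 1586 in KO 1 and 2081 in KO 2, and 4 of the 10 rose. Over all tested genes, 8.13% rose, which is the share to set beside each count of markers here. Trac, the constant gene of the TCR alpha chain, was at 16.8 to 39.2 CPM in WT and at 405 and 636 CPM in KO (log2 fold change 4.11, adjusted p = 9.41e-05). Trgc1, a constant gene of the TCR gamma chain, was at 4.80 to 21.9 CPM in WT and at 127 and 145 CPM in KO (3.46, adjusted p = 0.00146), and Trbc2 rose as well (2.99). Trac, Trgc1 and Trbc2 were thus above every WT library in both KO libraries. Other genes of the lists did not follow. Trbc1 was not called, at 86.0 to 119 CPM in WT and 96.8 and 70.1 CPM in KO. Trdv4 was at 33.8 to 45.2 CPM in WT and 62.7 and 30.5 CPM in KO. In KO 2 both thus lay below every WT library. For Cd3d, KO 2 (53.6 CPM) lay within the WT range (38.3 to 88.6 CPM). Every marker of both lists had a count in every library, and neither Cd3e nor Trdc was called. Cd3e was at 18.1 to 74.9 CPM in WT and at 131 and 82.3 CPM in KO, and Trdc at 109 to 207 CPM in WT and at 283 and 135 CPM in KO. For Trdc, KO 2 thus lay within the WT range. Markers of further cell types were also higher in one or both KO libraries. B cell genes summed to 365 to 419 CPM in WT and 531 and 456 CPM in KO (6 of 8 rose), with Ms4a1 at 0 in 2 WT libraries. Ighm made up most of these sums, at 359 to 406 CPM in WT and 357 and 365 CPM in KO, and was not called. Myeloid genes summed to 5.38 to 105 CPM in WT and 69.4 and 171 CPM in KO (none of 8 called by edgeR, 4 at an unadjusted p under 0.05). Stromal and epithelial genes summed to 111 to 120 CPM in WT and 272 and 451 CPM in KO (4 of 6 tested rose). Most of these sums was Pecam1, at 103 to 113 CPM in WT and 245 and 402 CPM in KO. Epcam was at 4.82 to 6.36 CPM in WT and 21.3 and 34.9 CPM in KO, and the others were lower. The part of such cells in the rise of Sox13 was not tested.

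Genes of the interleukin 17 programme of gamma-delta T cells, in which Sox13 acts, were also higher. Of 15 listed, 13 were tested, 9 rose and none fell, although Ccr2 fell with DESeq2, with no filter on low counts and with the replicate block. Their median log2 fold change was 1.70, against 0.02 over all tested genes. Over all tested genes, 8.13% rose. Il1r1, the interleukin-1 receptor gene, was at 0.08 to 0.97 CPM in WT and at 9.74 and 37.4 CPM in KO (log2 fold change 5.47, adjusted p = 4.27e-04). Blk, a Src-family kinase gene expressed in B cells as well as in these T cells, was at 0.16 to 0.36 CPM in WT and at 15.7 and 6.54 CPM in KO (5.45, adjusted p = 0.00109). WT 4 was the highest WT library for Il1r1 and Blk as for Sox13, and also for some markers of other cells, such as Ms4a1 and Rag1. Other genes of the type 17 list, Ccr6 among them, were highest in WT 1, WT 2 or WT 3. Like Blk, the B cell gene Ms4a1 (44.2 and 9.73 CPM) was higher in KO 1 than in KO 2, and the part of B cells in Blk was not tested. The cytokine genes of the programme were hardly counted: Il17a was at 0 in all 6 libraries and Il17f at 0 in all but KO 2 (0.71 CPM). Those zeros allow at most 0.0989 to 0.180 CPM, depending on the library. The list was chosen with earlier results of these data known, and 2 of its genes, Ccr6 and Il1r1, had been shown to rise before.

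Sox5 (Entrez gene 20678), at chr6:143828425-144782287 on the minus strand, spans 953863 bases with up to 15 exons, and an exon of the antisense gene Sox5os1 overlaps it. Reads of the pair cannot be separated without strand. WT 1 to WT 4 held 4.09, 5.60, 2.46 and 2.18 CPM, and KO 1 and KO 2 held 1.74 and 0.82 CPM. The lowest WT library and the higher KO library were thus close. The log2 fold change was -1.54 (SE 0.62, 95% interval -2.97 to -0.10, unadjusted p = 0.0394, adjusted p = 0.146), from 3.58 ± 1.59 CPM (SD, n = 4) to 1.28 ± 0.65 CPM (SD, n = 2). Sox5 was therefore not called, and its interval reaches from nearly no change to a reduction larger than the mean difference. It was below 0 within the libraries labelled male (-0.91) and female (-2.25, or -1.42 with WT 4 as the only WT library).

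Sox4 (Entrez gene 20677), at chr13:28948919-28953699 on the minus strand, has a single exon, which overlaps the opposite-strand long noncoding gene Gm26735. It was the most counted SOX gene in every library but KO 1, at 28.1, 26.6, 26.5 and 42.8 CPM from WT 1 to WT 4. In KO 1 it was 7.88 CPM and in KO 2 40.2 CPM, so KO 1 lay below and KO 2 within the WT range. Mean Sox4 was 31.0 ± 7.93 CPM in WT (SD, n = 4) and 24.0 ± 22.8 CPM in KO (SD, n = 2), and the log2 fold change was -0.63 (SE 0.43, 95% interval -1.64 to 0.38, adjusted p = 0.377). A single library decided it: the value was 0.21 without KO 1 (adjusted p = 0.712) and -1.80 without KO 2 (adjusted p = 0.0261, called). The KO libraries differed 5.10-fold.

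The libraries with the most Sox4, WT 4 and KO 2, were those with the most transcript of immature thymocytes, cells in which Sox4 is known to be expressed. The same libraries also had the highest summed level of myeloid markers (105 and 171 CPM, against 5.38 to 69.4 CPM elsewhere). KO 1, with the least Sox4, held more transcript of immature thymocytes (64.4 CPM) than WT 1 to WT 3 (29.8 to 53.8 CPM). Rag1, the recombinase gene of developing lymphocytes, was at 62.4 CPM in WT 4 and 322 CPM in KO 2, but at 4.25 to 11.2 CPM in the other 3 WT libraries and 20.2 CPM in KO 1. Dntt, the gene of terminal transferase, was at 45.5 CPM in WT 4 and 109 CPM in KO 2, but at 5.91 to 17.6 CPM in the other 3 WT libraries and 10.7 CPM in KO 1. Ptcra, which encodes the pre-TCR alpha chain, was at 0.73 to 1.33 CPM in WT, 2.38 in KO 1 and 33.6 in KO 2. Cd1d1 went the other way, with 16.5 to 20.5 CPM in WT, 13.5 in KO 1 and 8.24 in KO 2. All 7 markers had a count in every library, and 2 of the 7, Ptcra and Arpp21, rose, while 8.13% of all tested genes rose. The part of immature thymocytes in the level of Sox4 was not tested.

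**Figure D2:**
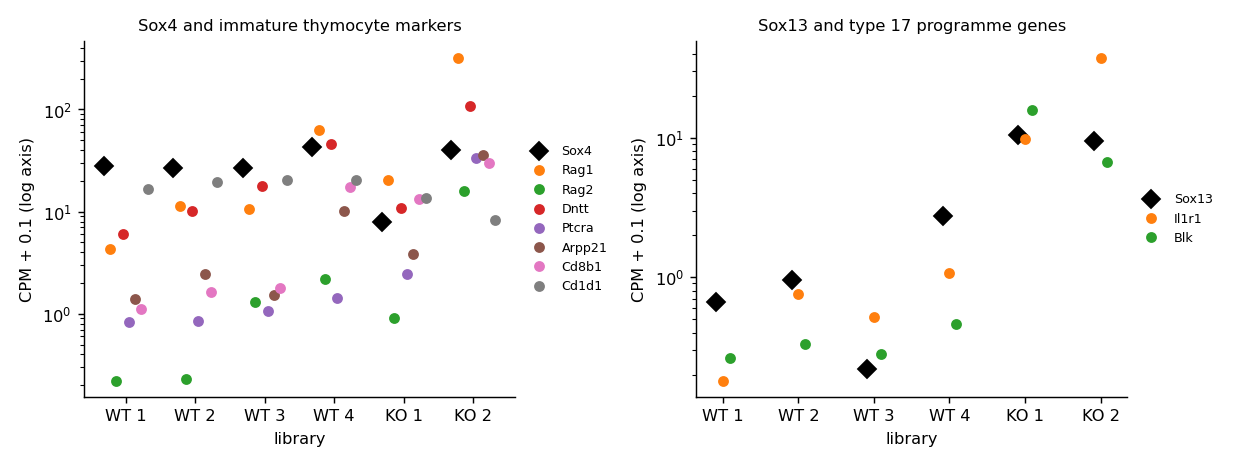
Level in each library, as CPM plus 0.1 on a log axis, of Sox4 with the 7 immature thymocyte markers (left) and of Sox13 with the type 17 genes Il1r1 and Blk (right). Sox4, Rag1 and Dntt are highest in WT 4 and KO 2, whereas Sox13, Il1r1 and Blk are higher in both KO libraries than in any WT library.

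**Figure D3:**
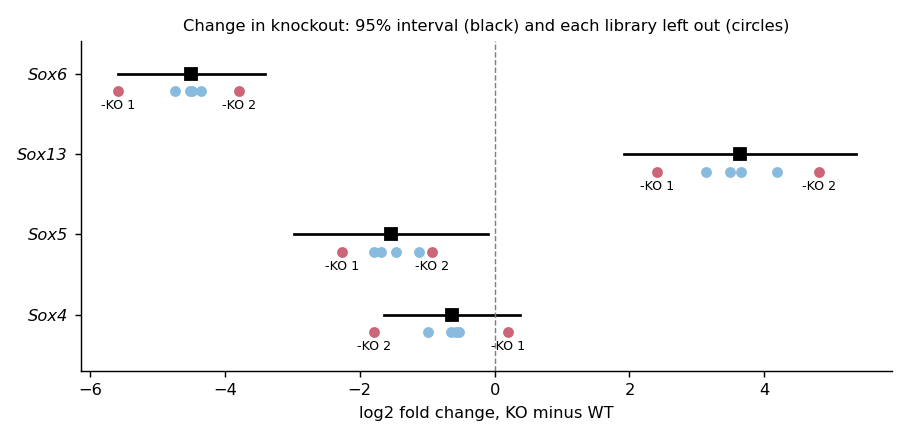
Log2 fold change, KO minus WT, of each SOX gene with its 95% interval (black square and line), and the same value with each library left out (circles, red where a KO library was left out). Every value of Sox6, Sox5 and Sox13 keeps its side of 0, whereas Sox4 goes from -1.80 without KO 2 to 0.21 without KO 1.

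None of the 4 SOX genes was called between libraries labelled female and male by edgeR, DESeq2 or limma voom, and 1, Sox4, had an unadjusted p under 0.05 in edgeR (female minus male 0.97, unadjusted p = 0.0443, adjusted p = 0.759). Over all genes, 0% were called for sex, with 866 at an unadjusted p under 0.05. The sex-linked genes were thus not called either, and WT 2 went against its label. This term therefore cannot show that a gene does not differ by sex. The difference of the KO effect between the sexes was tested with a product term, added after seeing the data. None of the 4 was called, again at 0% of all genes, although Sox4 (2.00, unadjusted p = 0.00302, adjusted p = 0.344) and Sox6 (-1.79, unadjusted p = 0.0303, adjusted p = 0.470) had an unadjusted p under 0.05. Sox4 was called for this term without WT 2 (1.70, adjusted p = 0.00594, with 2.91% of all genes called), without WT 4 (2.38, adjusted p = 7.90e-04, 1.52% called) and with no filter on low counts (adjusted p = 0.0205, 0.512% called). With 1 KO mouse per labelled sex, sex and mouse cannot be told apart here.

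To compare the SOX genes with one another, counts were divided by the gene length in the deposited table and given per kilobase on the CPM scale (RPKM). In WT the order of the mean level was Sox4 (10.4 RPKM), Sox6 (1.79), Sox5 (0.49), Sox12 (0.42) and Sox13 (0.30). Sox4 (8.91 to 14.4) and Sox6 (1.29 to 2.43) did not overlap with any of the others, whereas Sox5 (0.30 to 0.76), Sox12 (0.37 to 0.47) and Sox13 (0.03 to 0.74) overlapped. Sox4 stood at the 52.2 percentile of all tested genes and Sox6 at the 25.4 percentile. In KO the order of the mean was Sox4 (2.66 and 13.5 RPKM), Sox13 (2.94 and 2.63), Sox5 (0.24 and 0.11), Sox6 (0.15 and 0.03) and Sox12 (0.01 and 0.12). In KO 1 Sox13 exceeded Sox4. Sox13 thereby moved from the 10.8 to the 26.7 percentile, and Sox6 to the 1.98 percentile.

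The make-up of the SoxD group differed more than its summed length-scaled level. The sum was 3.15, 2.71, 2.10 and 2.33 RPKM in WT 1 to WT 4, 3.33 in KO 1 and 2.77 in KO 2, so that KO 2 lay within the WT range and KO 1 just above it. Sox6 made up 77.2%, 62.8%, 82.4% and 55.3% of it in WT 1 to WT 4, but 4.52% in KO 1 and 1.11% in KO 2. Sox13 made up 5.09%, 8.96%, 1.62% and 31.9% in WT 1 to WT 4, and 88.4% in KO 1 and 94.9% in KO 2. These shares restate the levels given above and were not tested.

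**Figure D4:**
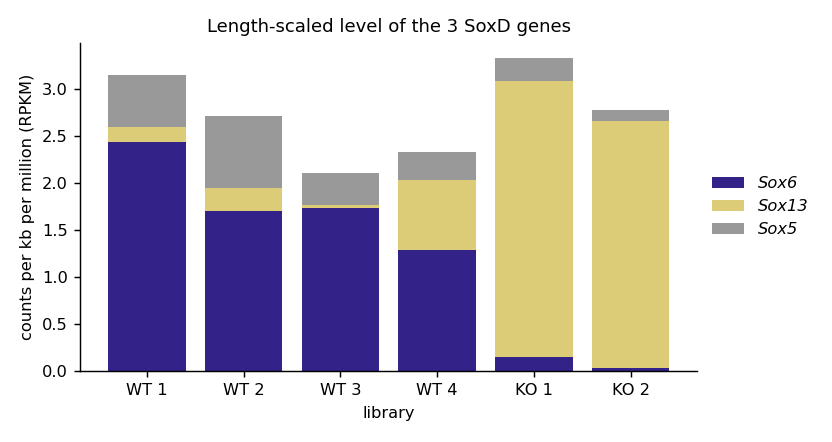
Length-scaled level (RPKM) of Sox6, Sox13 and Sox5, stacked, in each library. The total lies between 2.10 and 3.33 RPKM in all 6 libraries, with Sox6 as the main part in the 4 WT libraries and Sox13 in both KO libraries.

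The remaining SOX family gave little signal. Of 16 other SOX genes, 7 had no count in any library, 5 had 1 to 9 counts in all and 4 had 10 or more. Sox12, the SoxC relative of Sox4, was at 1.66, 1.98, 2.10 and 1.70 CPM in WT 1 to WT 4, and at 0.06 CPM (1 count) in KO 1 and 0.52 CPM (14 counts) in KO 2. Its 4 WT libraries were close together and above both KO libraries, and the log2 fold change was -2.78 (SE 0.88, adjusted p = 0.0786), which was not called. It was called by DESeq2 (adjusted p = 0.00763) and without the filter on low counts (adjusted p = 0.0458). Sox8 was counted in WT 4 (26 counts) and KO 2 (15 counts) alone, and Sox9, known from epithelial and cartilage cells, in WT 4 (9 counts) and KO 1 (10 counts) alone. Sox15 had 2 and 7 counts in WT 1 and WT 3 and 5 in KO 2. Of the 2 other SOX genes tested by edgeR, Sox8 and Sox12, 0 were called and 1 had an unadjusted p under 0.05.

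HMG-box genes outside the SOX family were mostly not called. Of 11 that bind specific sequences (the TCF/LEF and TOX genes, Cic, Bbx and Hbp1), 2 fell, 9 were not called and none rose. Their median log2 fold change was 0.13, and over all tested genes 5.58% fell and 8.13% rose. The genes that were not called included low ones with wide intervals, such as Tcf7l2 (2.04), Tox2 (1.84) and Tcf7l1 (-1.82). The 2 were Tcf7 (-1.35, adjusted p = 0.00294) and Cic, a repressor gene of receptor kinase signalling (260 ± 12 to 197 ± 5.72 CPM, -0.40, adjusted p = 0.0348). Cic lost its call without WT 1, WT 2, WT 3, KO 1 or KO 2, with scaling by library size only and with the replicate block. Lef1, the closest relative of Tcf7, was at 44.0 to 61.1 CPM in WT and 51.5 and 94.2 CPM in KO (0.44, adjusted p = 0.230). Of 13 architectural HMG-box proteins, which bind DNA with little sequence preference, 2 rose and 1 fell, beside the same 8.13% and 5.58% of all tested genes, with a median of 0.02. Wdhd1, a replication factor gene, rose from 18.5 ± 1.22 to 38.0 ± 9.30 CPM (1.02, adjusted p = 0.00456), and Hmgb3 from 5.76 ± 1.02 to 11.7 ± 1.95 CPM (1.01, adjusted p = 0.0399). Ubtf, which encodes a factor of ribosomal RNA transcription, fell from 332 ± 15.9 to 257 ± 5.42 CPM (-0.37, adjusted p = 0.0389). Hmgb3 and Ubtf lost their calls without WT 1, WT 2, WT 3, KO 1 or KO 2 and with the replicate block, and Ubtf also with scaling by library size only.

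**Figure D5:**
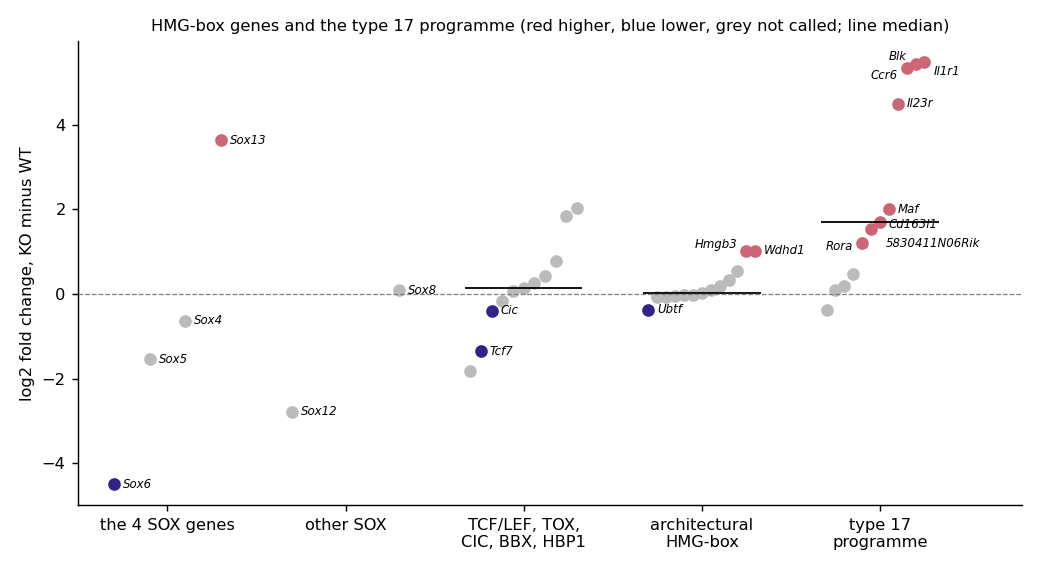
Log2 fold change, KO minus WT, of the tested genes of 5 groups (points, 1 type 17 gene not drawn), red where called higher, blue where called lower and grey where not called, with a line at the median of all tested genes in groups of more than 4. Sox6 is the lowest point drawn and the type 17 genes Il1r1 and Blk are the highest drawn, while the medians of the other HMG-box groups are 0.13 and 0.02.

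The protein-coding neighbours of the SOX genes that were tested did not pass the test. The nearest one to Sox13, Etnk2, lies 1.98 kb away and was at 3.02 ± 0.42 CPM in WT and 1.84 ± 0.71 CPM in KO (log2 fold change -0.73, adjusted p = 0.330), opposite in sign to Sox13. The nearest one above Sox6, 1110004F10Rik, lies 40.6 kb away and had a log2 fold change of 0.06 (adjusted p = 0.796). The other neighbours tested, Cdkal1 and Snrpe beside Sox4 and Sox13, and Etnk1 and Bcat1 beside Sox5, had adjusted p of 0.141 to 0.951. Prl5a1 on the other side of Sox4 and Insc on the other side of Sox6 had a mean of 0 CPM in WT and KO and were not tested.

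Over the 6 libraries, Gxylt1 (Pearson r = 0.998) and Pou6f1 (0.998) were among the 3 genes whose log2 CPM ran most like Sox6 of 10111 candidates, and 284 candidates had an r above 0.95. Both were called lower in KO, Pou6f1 from 109 ± 9.20 to 32.3 ± 13.8 CPM (log2 fold change -1.81). For Sox13 the 3 were the DNA polymerase alpha gene Pola1 (0.996), Prorp (0.992) and Rpusd2 (0.987). For Sox5 they were Gpalpp1 (0.994), Adgre5 (0.993) and Hibch (0.992), and for Sox4 Lrrc41 (0.991), Ap3s1 (0.990) and Tmem158 (0.990). These correlations rest on 6 libraries that share their grouping and describe the order of the libraries only.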

How the data were processed

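RNA-seq counts of 6 libraries of sorted thymic NK cells (4 WT, 2 KO) were used. The deposited values are raw counts per Entrez gene. Per the submitters' processing notes, featureCounts and mm10 were used, and the sources used here give no aligner, annotation or version. Per the labels' protocols, cDNA was made with SMART-Seq v4, a low-input kit that marks neither strand nor molecules, so limits from counts cover counting error only. The deposited table's length column served for RPKM. Symbols came from RefSeq GRCm38.p6 (25275 of 26332 IDs, and the other 1057 held 0.623% of counts). The table held 0 columns of other samples.

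KO was compared with WT with edgeR 4.0.16 (R 4.3.3): TMM, filterByExpr by genotype, glmQLFit and glmQLFTest, labelled sex as an additive term, Benjamini-Hochberg over 13652 genes. SE is the log2 fold change divided by the root of F, and intervals use 95%. The fit had 3 residual degrees of freedom. On simulated counts (13366 genes), 27.6% of 2-fold and 98.9% of 4-fold changes were recovered, with 2 of 118 calls false. The simulation gave every gene the same dispersion and no sex effect, so these shares need not hold for genes that vary more. Alternatives tried were other scalings (RLE, upper quartile, library size only), no filter, a filter of 5 CPM in 2 libraries, a fit without sex, a replicate block, DESeq2 1.42.0, limma voom 3.58.1, the robust option and each library left out. Chosen after seeing the data were fits without WT 3 and WT 4, without WT 4 and KO 2, without WT 2 and KO 2, and with a genotype by sex term.

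The members and gene lists were chosen with earlier results of these data known. Named were the 4 members, other SOX genes with at least 10 counts, Tcf7, up to 3 called genes per list by size of change, and the 3 genes per member with the highest correlation of log2 CPM (mean at least 2, prior count 2). Marker and sex-linked genes, Ccr2, Lef1 and other uncalled HMG-box genes, neighbours and genes at 0 were named outside that rule, after their values were seen. Some genes that the rule names are not reported here. Of 9 gamma-delta and 8 red cell marker names, 9 and 7 were matched, some by older symbols. RefSeq promoters were found for all 4 members.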

Additional observations from a re-analysis of the deposited data

Results flagged for a closer look

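The level of Sox4 in WT 4 (42.8 CPM) lay far from the other 3 WT libraries (26.5 to 28.1 CPM) by Dixon's test. Sox8 (1.05 CPM) and Sox9 (0.363 CPM) were counted in WT 4 and at 0 in the other 3 WT libraries. WT 4 also held the most Rag1 and Sox13 among WT libraries. Chance gives such a distance in about 1 in 20 groups of normally distributed values. That rate does not apply to Sox8 and Sox9, because any gene counted in a single WT library meets the rule. All SOX genes with at least 10 counts were put to it.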

How the results depend on the processing

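Of the 10 alternatives of scaling, filter, model and tool, every one kept the direction and side of the threshold of Sox4, Sox6 and Sox13, as did the 9 that tested Sox5 (which fails the filter of 5 CPM in 2 libraries). The log2 fold change ran from -4.74 to -4.40 for Sox6 and from 3.21 to 3.79 for Sox13. With a replicate block, in place of the sex term, it was -4.74 for Sox6, 3.79 for Sox13, -1.99 for Sox5 and -0.56 for Sox4. The numbers shared by WT and KO mice are those of individual mice. Deviations from the group means correlated at r = 0.13 for WT 1 and KO 1 and at r = -0.05 for WT 2 and KO 2. With 2 KO libraries, the deviations of KO 1 and KO 2 are mirror images. These values therefore cannot show whether the mice were paired. With 1 library left out, the values ran from -5.59 to -3.80 (Sox6), 2.42 to 4.81 (Sox13), -2.26 to -0.92 (Sox5) and -1.80 to 0.21 (Sox4, reversed without KO 1). The cause of that reversal was not tested further.

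All genes called were 1872, 2955 with DESeq2, 1341 with the block and 934 to 1908 with 1 library left out, where fewer libraries were fitted. TMM gave 1110 higher and 762 lower calls and library size only 1336 and 523, which moved the median of all genes from 0.02 to 0.10. Of the other SOX genes, 1 was called with no filter, with DESeq2 and without KO 2 together with WT 4 or with WT 2. Sox4 was -0.63 with no filter and -0.66 with DESeq2. It was -1.79 without KO 2 together with WT 4 or with WT 2, and leaving out WT 4 and KO 2, its highest libraries, fixes that direction. Of the sequence-specific HMG-box factors, 1 was called with library size only and with the block, and 1 to 2 with 1 library left out. Of the architectural ones, 1 was called with the block and without WT 3 and WT 4 together, and 1 to 4 with 1 library left out. Type 17 calls were 8 to 10 over the 10 alternatives and 6 to 8 with 1 library left out (9 as reported, all higher), of which 1, Ccr2, was lower with no filter, DESeq2, the block and without WT 3 and WT 4 together. Between labelled sexes, 1 member was called without WT 2 and KO 2 together. The genotype by sex term called 1 member with no filter and 0 to 1 with 1 WT library left out. It could not be fitted without a KO library, and was not run with the block, without the sex term or with DESeq2. The floor of 3 counts limits Sox13 in WT 3, and the 7 counts of Sox6 in KO 2 make its size there uncertain.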
